A study of Mus musculus with 6 samples.

Results

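A group of 10 genes of cell cycle exit and growth restraint, most of them known as targets of FoxO transcription factors, was followed in a mouse mammary tumour cell line after knockdown of Sca-1, a cell surface protein of the Ly6 family. They were Cdkn1b, Rbl2, Ccng2, Mxd4, Klf9, Bcl6, Txnip, Pik3ip1, Sesn1 and Sesn3. These 10 of 18193 genes were chosen by name, with earlier results of these arrays known, and every probe set that the platform annotation assigns to them alone was taken, which gave 29 of 45037 probe sets. Because the genes were selected on the contrast shown here, their differences are a description and carry no test. RNA from Wnt1-YL cells, a line grown from an invasive mammary carcinoma that arose in an FVB/n MMTV-Wnt1 mouse, was hybridized to 6 Affymetrix arrays. The 3 shSca-1 arrays came from cells transduced with a pLKO lentivirus that carried an shRNA against Sca-1. The 3 shLuc arrays came from control cells transduced with an shRNA against luciferase, whose vector is not given separately in the sources used here. Both groups shared the tumour of origin and a culture medium that contained insulin and EGF, and transduced cells were selected with puromycin. A single cell line from 1 tumour limits both groups as a model.

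FoxO factors are held in the cytoplasm when insulin or growth factors activate PI3K and Akt, and they enter the nucleus when that signal falls. There they switch on genes that slow the cell cycle, curb growth signalling and lower oxidative stress. Cdkn1b encodes p27, which binds and inhibits cyclin-CDK complexes, and Rbl2 encodes p130, the pocket protein that assembles the DREAM complex on cell cycle promoters in resting cells. In mammary epithelium, as elsewhere, such genes are typically high in resting cells and low in dividing ones.

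The promoters of the genes differ in the regulatory letters they hold. All 10 genes matched the RefSeq promoter table, with 12 promoters of 300 bases each (250 before and 50 after the transcript start, build GRCm38.p6), because Bcl6 and Sesn1 have 2 starts each. The promoters were searched on both strands for GTAAACA (a FoxO site), CAAAACA (an insulin response element), CACGTG (an E-box, the class of site that MYC-MAX and MXD-MAX pairs bind), CCAAT (the NF-Y box) and GGCGGGA (an E2F-type site). GTAAACA lay in 3 of the 12 promoters, those of Klf9, Txnip and Sesn1, and in 3.65% of all 32851 promoters of the table. CAAAACA lay in 1 of them, that of Ccng2, and in 6.28% of all. CACGTG was in the promoters of Mxd4 and of the second start of Bcl6, and in 7.15% of all. CCAAT was in 7 of the 12 and in 37.4% of all, while GGCGGGA was in that of Sesn3 and in 11.3% of all. Those of Rbl2, Pik3ip1 and the first start of Bcl6 held none of these 5 motifs. A match is a description of the letters and not a measured site.

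A set of 5 promoters is printed 5′ to 3′ on the strand of the gene, with matches in capitals. Klf9, Txnip and Sesn1 show the FoxO letters, Ccng2 the insulin response element, and Cdkn1b a promoter with CCAAT boxes and no exact match to GTAAACA. In Klf9 a CCAAT on each strand overlaps as CCAATTGG.
Klf9 promoter, chr19:23140976-23141275, + strand: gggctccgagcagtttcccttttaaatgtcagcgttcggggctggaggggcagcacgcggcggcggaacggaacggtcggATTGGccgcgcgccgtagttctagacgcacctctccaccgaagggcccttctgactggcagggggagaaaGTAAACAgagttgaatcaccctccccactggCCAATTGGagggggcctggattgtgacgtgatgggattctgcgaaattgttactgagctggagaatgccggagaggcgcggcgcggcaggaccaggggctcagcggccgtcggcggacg
Txnip promoter, chr3:96557707-96558006, + strand: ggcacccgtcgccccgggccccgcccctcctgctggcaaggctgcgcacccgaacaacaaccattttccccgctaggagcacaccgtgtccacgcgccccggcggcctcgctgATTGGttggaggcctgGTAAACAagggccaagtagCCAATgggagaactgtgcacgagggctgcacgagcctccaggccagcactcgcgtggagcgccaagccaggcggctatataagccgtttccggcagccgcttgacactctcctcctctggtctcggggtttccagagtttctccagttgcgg
Sesn1 (first start) promoter, chr10:41810324-41810623, + strand: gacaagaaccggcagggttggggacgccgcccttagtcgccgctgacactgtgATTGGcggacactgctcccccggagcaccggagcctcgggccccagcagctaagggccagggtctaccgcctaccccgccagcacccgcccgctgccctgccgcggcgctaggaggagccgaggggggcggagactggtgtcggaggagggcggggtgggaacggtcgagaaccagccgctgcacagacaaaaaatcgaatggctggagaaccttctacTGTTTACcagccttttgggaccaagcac
Ccng2 promoter, chr5:93267323-93267622, + strand: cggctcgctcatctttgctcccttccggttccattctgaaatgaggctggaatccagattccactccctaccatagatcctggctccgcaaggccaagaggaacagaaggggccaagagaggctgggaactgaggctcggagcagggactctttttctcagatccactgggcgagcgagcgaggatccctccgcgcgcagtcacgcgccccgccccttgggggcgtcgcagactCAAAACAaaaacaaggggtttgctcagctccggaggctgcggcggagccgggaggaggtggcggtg
Cdkn1b promoter, chr6:134920151-134920450, + strand: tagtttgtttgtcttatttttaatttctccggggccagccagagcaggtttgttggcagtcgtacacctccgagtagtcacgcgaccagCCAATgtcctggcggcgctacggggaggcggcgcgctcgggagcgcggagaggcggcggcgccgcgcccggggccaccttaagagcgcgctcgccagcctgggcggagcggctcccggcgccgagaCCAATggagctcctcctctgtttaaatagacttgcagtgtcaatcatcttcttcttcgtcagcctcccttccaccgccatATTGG

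The FoxO letters lay 100 to 94 bases before the start in Klf9, at -121 to -115 in Txnip and at 22 to 28 after the start in Sesn1, where they stand on the reverse strand as TGTTTAC. The insulin response element of Ccng2 lay at -16 to -10.

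**Figure D1:**
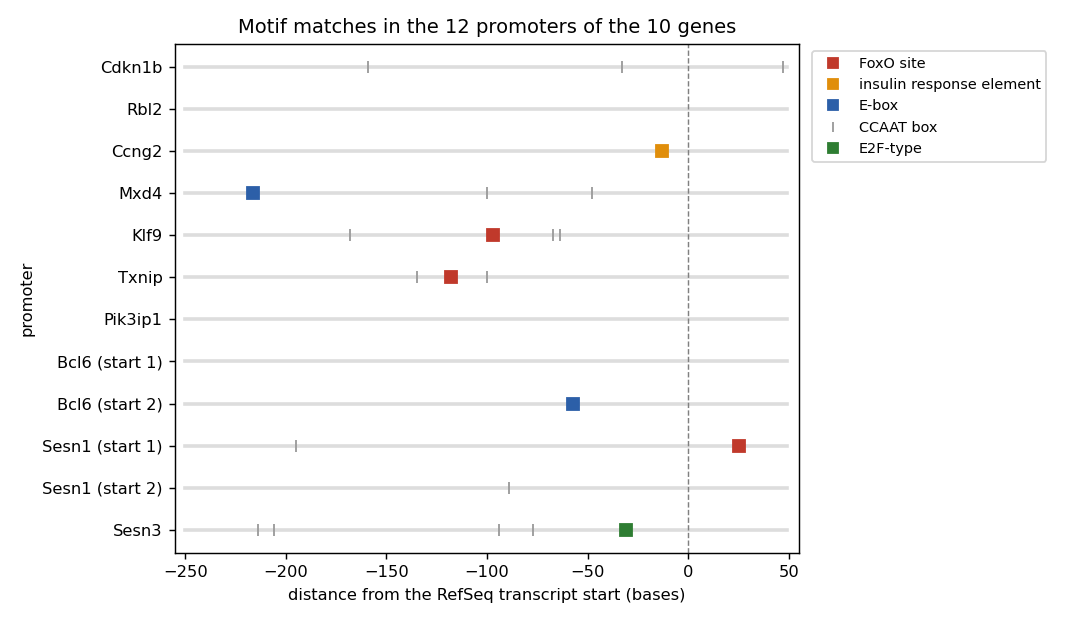
Positions of the motif matches in the 12 promoters of the 10 genes, with the distance from the RefSeq transcript start in bases on the x axis and 1 promoter on each line. Coloured squares and grey ticks mark the centre of each match, and the 3 red squares are the FoxO letters of Klf9, Txnip and Sesn1.

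The knockdown was visible on the arrays. Ly6a, which encodes Sca-1, had intensities of 285, 314 and 306 on shSca-1 replicates 1, 2 and 3, against 7646, 7362 and 2843 on shLuc replicates 1, 2 and 3, a log2 difference of -4.17 (SE 0.36), or -4.64 without shLuc replicate 3. That shLuc array stood apart. Its highest correlation with any other array was 0.924, against 0.957 or more for the other arrays. The summed intensity of 12 luminal cell markers was 525 to 580.4 on the shSca-1 arrays and 493 to 519 on shLuc replicates 1 and 2, against 22046 on shLuc replicate 3, where all 12 were over 100. The 6 basal markers summed to 16656 on that array and to 28312 or more on the others. The 8 fibroblast markers summed to 451, 426 and 432 on the shSca-1 arrays, against 226, 184 and 391 on the shLuc arrays. Every shSca-1 sum was above every shLuc sum, with at most 2 of the 8 over 100 on any array. The list did not move together, with 4 log2 differences positive and 4 negative. Pdgfrb had 157, 170 and 3.26 on the shSca-1 arrays, against 11.3, 10.5 and 27.5 on the shLuc arrays. Pdgfra had 96.2, 108 and 292, against 60.8, 48.6 and 147. Endothelial markers summed to 105 to 132 and leukocyte markers to 371 to 656 over the 6 arrays. The brightest probe set of each of the 10 genes is therefore given with and without shLuc replicate 3, and the part of these marker levels in the results was not tested. The labels call the replicates biological but do not say that they were separate cultures, so the errors and p-values measure the spread between these arrays only. In bulk RNA, fewer cells of a type and less RNA per cell cannot be told apart.

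Cdkn1b, Rbl2 and Ccng2, the genes of the 10 that act on the cell cycle directly, were lower in shSca-1 cells. Cdkn1b had intensities, in the linear units of the deposited values, of 306, 311 and 320.1 on shSca-1 replicates 1, 2 and 3, against 677, 674 and 1063 on shLuc replicates 1, 2 and 3. The 3 shSca-1 arrays lay close together and all below the lowest shLuc array, and shLuc replicate 3 was the highest. Means were 312 ± 7.13 in shSca-1 cells and 804 ± 224 in shLuc cells (SD, n = 3 each), and the log2 difference, shSca-1 minus shLuc, was -1.33 (SE 0.19), or -1.11 (SE 0.09) without shLuc replicate 3. A second Cdkn1b probe set was near background, between 11.3 and 35.3 on the shSca-1 arrays and between 17.2 and 39.8 on the shLuc arrays, and the groups overlapped there. Its log2 difference was -0.40 (SE 0.52), or -0.25 (SE 0.57) without shLuc replicate 3.

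Rbl2, the p130 gene, gave 148, 195 and 203 on the shSca-1 arrays, against 499, 438 and 576 on the shLuc arrays. The groups were far from overlapping, and each shLuc array was above every shSca-1 array. The means were 182 ± 29.7 in shSca-1 cells and 504 ± 69.4 in shLuc cells (SD, n = 3 each), a log2 difference of -1.48 (SE 0.17), or -1.38 (SE 0.16) without shLuc replicate 3. The other Rbl2 probe set showed the same separation, with 59.7, 63.7 and 44.7 on the shSca-1 arrays, against 133, 108 and 142 on the shLuc arrays, and a log2 difference of -1.20 (SE 0.21), or -1.12 (SE 0.22) without shLuc replicate 3.

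Ccng2 encodes cyclin G2, an atypical cyclin that slows the cell cycle and is a well-known FoxO target. Its intensities were 749, 861 and 961 on the shSca-1 arrays, against 1564, 1545 and 2013 on the shLuc arrays. All shSca-1 values lay below all shLuc values, and shLuc replicate 3 was again the highest. Means were 857 ± 106 in shSca-1 cells and 1708 ± 265 in shLuc cells (SD, n = 3 each), a log2 difference of -0.99 (SE 0.15), or -0.87 (SE 0.11) without shLuc replicate 3. The second probe set, at 368, 432 and 487 on the shSca-1 arrays against 746, 663 and 1023 on the shLuc arrays, had a log2 difference of -0.90 (SE 0.19), or -0.72 (SE 0.13) without shLuc replicate 3, and did not overlap either.

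Among the transcriptional repressors, Mxd4 was lower at every one of its probe sets. It encodes MAD4, which pairs with MAX and occupies E-boxes in place of MYC. Mxd4 had 272, 265 and 453 on the shSca-1 arrays, against 662, 628 and 757 on the shLuc arrays. The groups did not overlap, although shSca-1 replicate 3 stood nearer to the shLuc arrays than the other shSca-1 arrays did. Means were 329.9 ± 106 in shSca-1 cells and 683 ± 67.0 in shLuc cells (SD, n = 3 each), a log2 difference of -1.09 (SE 0.22), or -1.01 (SE 0.22) without shLuc replicate 3. All 4 Mxd4 probe sets were lower with no overlap, with log2 differences between -1.09 and -0.49.

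Klf9, a Krüppel-like factor known to be induced by glucocorticoids and thyroid hormone, depended on 1 array. Its brightest probe set had 234, 212 and 296 on the shSca-1 arrays, against 297, 265 and 643 on the shLuc arrays. The groups overlapped, and shLuc replicate 3 lay far above the other arrays. Means were 247 ± 43.5 in shSca-1 cells and 402 ± 209.6 in shLuc cells (SD, n = 3 each), a log2 difference of -0.60 (SE 0.34), but only -0.20 (SE 0.16) without shLuc replicate 3. Of its 7 probe sets, 6 were lower and 1 higher, 3 had a mean below the median of all probe sets, and 1 was lower with no overlap. The log2 differences of the 7 ranged from -0.94 to 0.36. Without shLuc replicate 3 they ranged from -0.55 to 0.89, with 2 probe sets lower with no overlap. The one at 0.89 was then higher with no overlap.

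Bcl6 encodes a zinc finger repressor best known from germinal centre B cells. Its brighter probe set had 423, 502 and 662 on the shSca-1 arrays, against 634, 595 and 409.7 on the shLuc arrays. The groups overlapped on both sides, with the highest value on shSca-1 replicate 3 and the lowest on shLuc replicate 3. The log2 difference was -0.05 (SE 0.22), or -0.24 (SE 0.17) without shLuc replicate 3. The dimmer probe set gave 149, 136 and 202 on the shSca-1 arrays, against 245, 246 and 175 on the shLuc arrays, a log2 difference of -0.46 (SE 0.21), and its groups separated only without shLuc replicate 3, at -0.62 (SE 0.18).

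Txnip had the largest log2 difference of the 10 genes. It encodes an alpha-arrestin that binds thioredoxin and reduces glucose uptake, and its transcription follows glucose through the MLX partners MondoA and ChREBP. The brighter probe set had 245, 269 and 599.6 on the shSca-1 arrays, against 2589.5, 2614 and 816 on the shLuc arrays. No shSca-1 array reached a shLuc array, but replicate 3 of each group lay toward the other group. Means were 371 ± 198 in shSca-1 cells and 2006 ± 1031 in shLuc cells (SD, n = 3 each), a log2 difference of -2.38 (SE 0.53), or -2.93 (SE 0.34) without shLuc replicate 3. The second probe set had 49.99, 125 and 204 on the shSca-1 arrays, against 1190.1, 1048 and 302 on the shLuc arrays. It was also free of overlap, with a log2 difference of -2.74 (SE 0.66), or -3.37 (SE 0.49) without shLuc replicate 3.

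Pik3ip1, which encodes a membrane protein that inhibits PI3K, changed its picture with 1 array. It had 287, 274 and 352 on the shSca-1 arrays, against 624, 558 and 125 on the shLuc arrays. Replicates 1 and 2 of shLuc were above every shSca-1 array, and shLuc replicate 3 was below all of them. The log2 difference was -0.22 (SE 0.58) on 6 arrays and -0.96 (SE 0.13) without shLuc replicate 3. Its second probe set had 121, 147 and 145 on the shSca-1 arrays, against 287, 247 and 69.2 on the shLuc arrays, and log2 differences of -0.31 (SE 0.51) on 6 arrays and -0.96 (SE 0.14) without that array.

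The sestrins Sesn1 and Sesn3 encode stress-induced proteins that restrain mTORC1 through the GATOR complexes. Sesn1 gave 336, 324 and 516 on the shSca-1 arrays, against 537, 457 and 277 on the shLuc arrays, and the groups overlapped. Its log2 difference was -0.09 (SE 0.29), or -0.37 (SE 0.20) without shLuc replicate 3. Of the other 3 Sesn1 probe sets, 2 were lower with overlap, at -0.29 (SE 0.28) and -0.24 (SE 0.29). These were, without shLuc replicate 3, at -0.58 (SE 0.18), then with no overlap, and -0.48 (SE 0.23). The remaining one was higher, with 58.2, 53.4 and 46.3 on the shSca-1 arrays, against 42.0, 36.5 and 43.2 on the shLuc arrays, a log2 difference of 0.37 (SE 0.21), or 0.42 (SE 0.23) without shLuc replicate 3, and its groups did not overlap. The Sesn1 probe sets thus pointed in both directions, with 1 against the other 3.

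Sesn3 had 334, 356 and 433 on the shSca-1 arrays, against 505, 462 and 854 on the shLuc arrays. The groups did not overlap, and the shLuc mean was drawn up by replicate 3. Means were 374 ± 51.9 in shSca-1 cells and 607 ± 215 in shLuc cells (SD, n = 3 each), a log2 difference of -0.65 (SE 0.24), or -0.38 (SE 0.13) without shLuc replicate 3. Its second probe set had 316, 376 and 324 on the shSca-1 arrays, against 490.3, 452 and 1027 on the shLuc arrays, a log2 difference of -0.86 (SE 0.30), or -0.48 (SE 0.11) without that array.

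**Figure D2:**
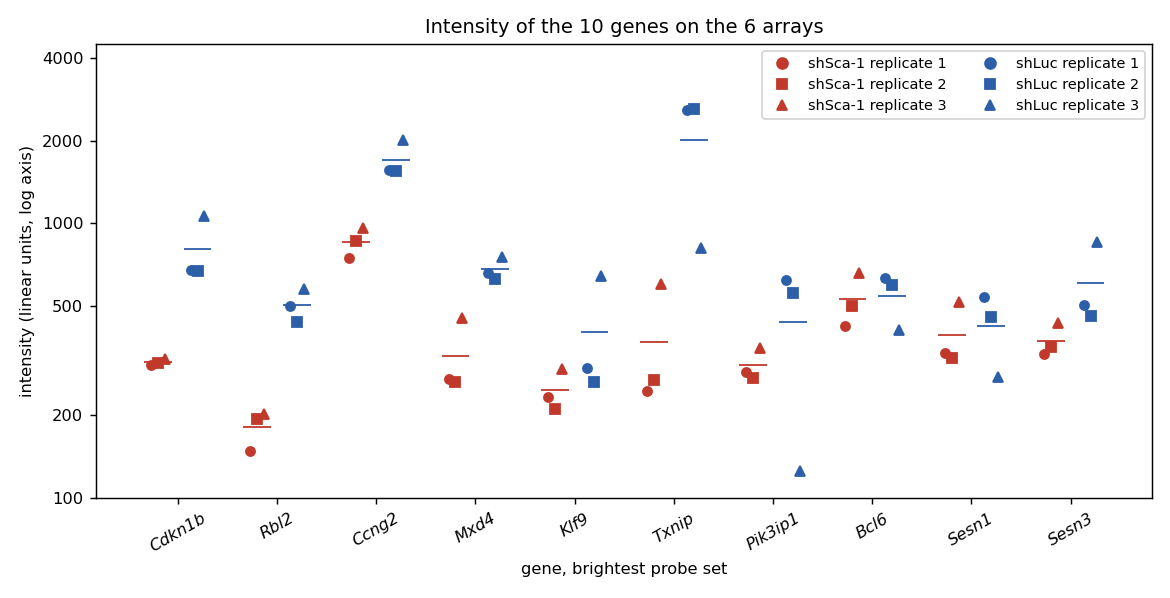
Intensity of the brightest probe set of each of the 10 genes on a log axis, with shSca-1 arrays in red left of the shLuc arrays in blue, a marker shape for each replicate and a line at each group mean. For 6 genes every red marker lies below every blue one, and the triangle of shLuc replicate 3 lies highest of the shLuc arrays in 6 genes and lowest in 4.

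Over all 29 probe sets, 27 had a lower mean log2 intensity in shSca-1 than in shLuc cells and 2 a higher one, 1 of Klf9 and 1 of Sesn1. Of the 29, 14 were lower with no overlap between the groups, which over all 45037 probe sets held for 9.81%. The higher probe set of Sesn1 also had no overlap, and the share of all probe sets for that direction was not counted. At the brightest probe set, 10 of 10 genes were lower, 6 of them with no overlap, against 11.5% of all genes. Without shLuc replicate 3 the separated genes numbered 7, with Pik3ip1 added, against 21.7% of all genes. The log2 differences passed both the p threshold of 0.01 and the 1.5-fold threshold in limma for 10 of the 29 probe sets, against 1.33% of all probe sets called lower. These 10 probe sets belonged to Cdkn1b, Rbl2, Ccng2, Mxd4 and Txnip, and the same 5 genes passed at their brightest probe set, against 1.52% of all genes called lower. Without shLuc replicate 3 it was 6 genes, again with Pik3ip1, against 2.91%. Since the genes were picked on this contrast, these shares only describe where they lie. The median log2 difference of the 10 genes was -0.82, and that of all 18193 genes -0.04. Without shLuc replicate 3 the medians were -0.92 for the 10 genes and -0.04 for all genes.

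**Figure D3:**
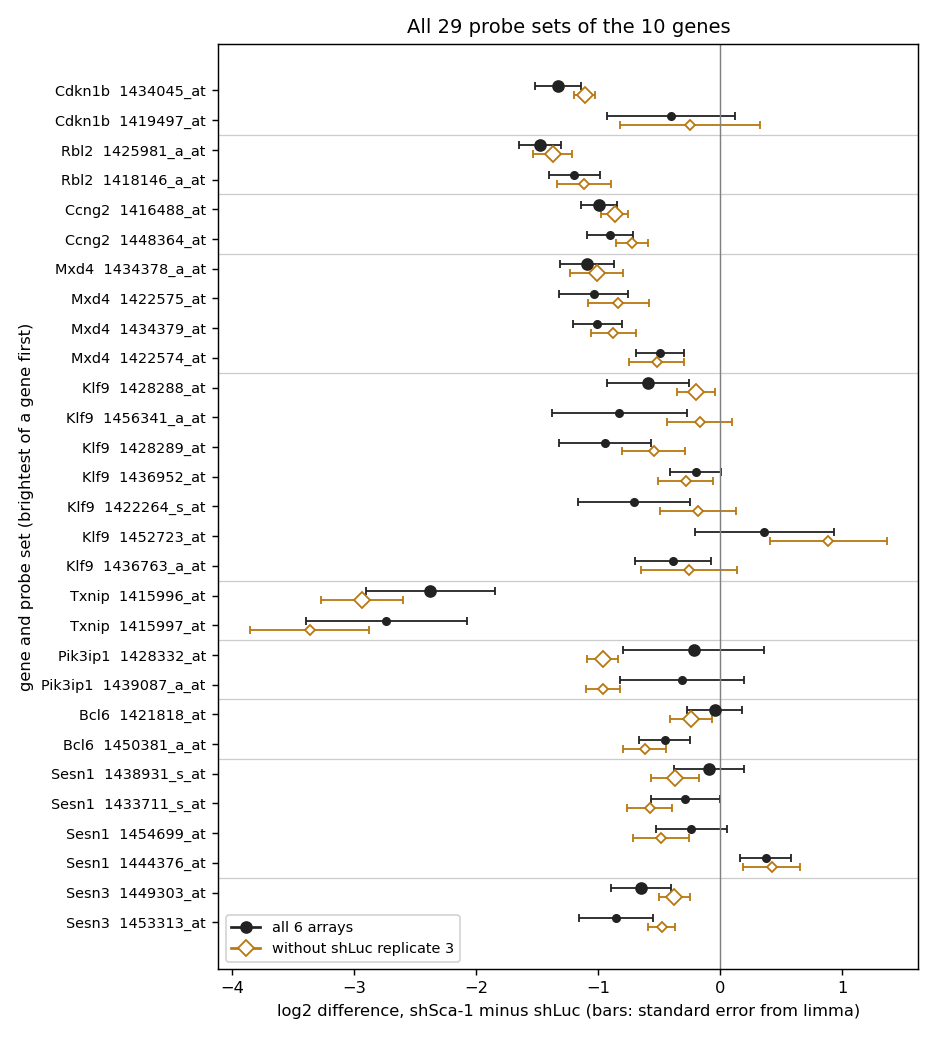
Log2 difference, shSca-1 minus shLuc, of each of the 29 probe sets, on the x axis, with a line for each probe set, with filled points for all 6 arrays, open points for 5 arrays without shLuc replicate 3 and bars for the standard error. Points lie below 0 for 27 probe sets, and the 2 above 0 belong to Klf9 and Sesn1.

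The array that stood apart split the genes into those above and those below the other shLuc arrays. Of the genes, 6 were higher on shLuc replicate 3 than on shLuc replicates 1 and 2, namely Klf9 (by 1.20 on the log2 scale against the mean of the other shLuc arrays), Sesn3 (0.82), Cdkn1b (0.65), Ccng2 (0.37), Rbl2 (0.30) and Mxd4 (0.23). Pik3ip1 (-2.24), Txnip (-1.67), Sesn1 (-0.84) and Bcl6 (-0.58) were lower there. The array was the highest of the shLuc arrays for 42.5% of all genes and the lowest for 39.5%. The shSca-1 arrays also differed among themselves, since shSca-1 replicate 3 was the highest of the shSca-1 arrays for 10 of the 10 genes and 21 of their 29 probe sets, against 42.1% of all genes.

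**Figure D4:**
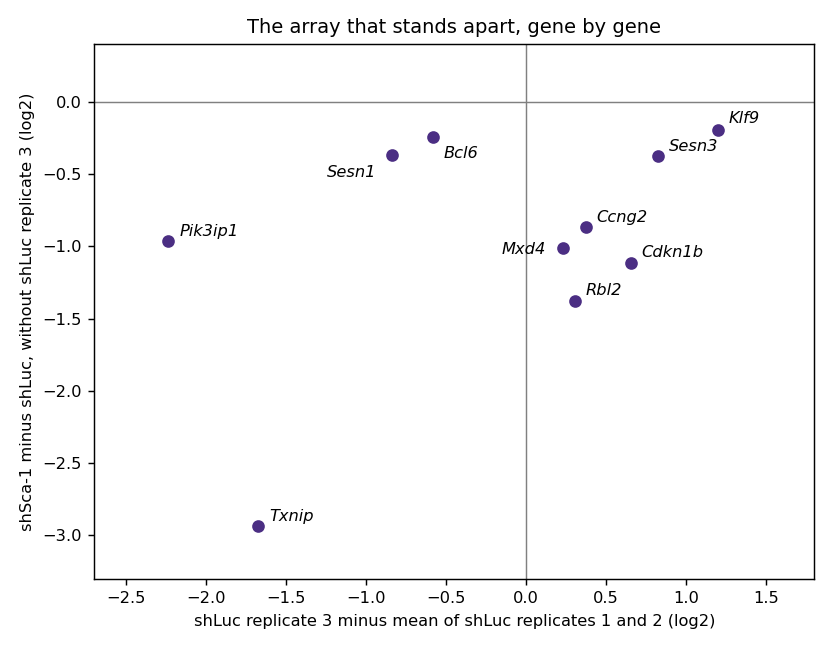
For each of the 10 genes, the log2 level on shLuc replicate 3 minus the mean of shLuc replicates 1 and 2 (x axis) against the log2 difference, shSca-1 minus shLuc, computed without that array (y axis). All 10 points lie below 0 on the y axis, 6 to the right and 4 to the left of 0 on the x axis.

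The neighbouring parts of the pathway were read from 16 lists with 234 distinct measured genes, none of them among the 10. Of these, 8 (3.42%) were lower in shSca-1 cells past both thresholds, against 1.52% of all genes, and 2 (0.855%) were higher, against 0.528%. Without shLuc replicate 3 there were 13 lower and 10 higher, against 2.91% and 1.08% of all genes. Without shSca-1 replicate 1 the lower list genes numbered 4, without shSca-1 replicate 2 they numbered 5, and without shLuc replicate 2 the higher ones numbered 1. The smallest adjusted p of any probe set on 6 arrays was 0.051 (limma, Benjamini-Hochberg over 45037 probe sets), and 1244 probe sets had an adjusted p under 0.05 without shLuc replicate 3. Lower probe sets made up 72.7% of all that passed both thresholds as deposited, against 59.5% after quantile normalization and 61.0% after centring.

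The FoxO factors themselves gave no call. Foxo1 had a log2 difference of -0.23 (SE 0.18), Foxo3 of 0.12 (SE 0.15) and Foxo4 of -0.07 (SE 0.15), with none past the thresholds without shLuc replicate 3 either. The 25 genes of the PI3K-Akt control of FoxO included both genes of that branch and genes that oppose it. Among these 25, 2 were lower and 0 higher, and 1 was lower when shLuc replicate 1 or 3 or any shSca-1 array was left out. Insr, the insulin receptor gene, had 58.8, 92.3 and 86.3 on the shSca-1 arrays, against 184, 184 and 254 on the shLuc arrays, with no overlap and a log2 difference of -1.40 (SE 0.23, adjusted p = 0.148 from limma, 0.0279 without shLuc replicate 3). Sgk3, a kinase related to Akt, had a log2 difference of -0.65 (SE 0.18, adjusted p = 0.337 from limma) and did not pass without shLuc replicate 3. The list's median was -0.04, beside -0.04 for all genes.

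Of 42 other FoxO target genes, 3 were lower and 0 higher, and the median was -0.22. Without shSca-1 replicate 1 only 1 was lower, and without shSca-1 replicate 3 there was 1 higher gene. Selenop, which encodes the selenium transport protein selenoprotein P, had 60.9, 88.6 and 102 on the shSca-1 arrays, against 593, 526 and 157 on the shLuc arrays, with a log2 difference of -2.16 (SE 0.50, adjusted p = 0.276 from limma, 0.00242 without shLuc replicate 3). As with Txnip, replicate 3 of shLuc was the lowest of its group and still above every shSca-1 array. Gabarapl1, an autophagosome gene, had a log2 difference of -0.63 (SE 0.09, adjusted p = 0.114 from limma), and Fbxo25, an F-box gene related to atrogin-1, of -0.67 (SE 0.14, adjusted p = 0.253 from limma), or -0.61 (SE 0.14) without shLuc replicate 3. Gabarapl1 missed the fold threshold without shLuc replicate 3, and no other gene of the list passed on 6 arrays. Atg14, an autophagy gene, passed without shLuc replicate 3 and not on 6 arrays, at -0.60 (SE 0.12).

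Around p27, 1 of 23 partner and turnover genes was lower and 0 higher. It was Uhmk1, which encodes KIS, a kinase that phosphorylates p27 and promotes its export from the nucleus. Uhmk1 had 205, 231 and 216 on the shSca-1 arrays, against 573, 552 and 519 on the shLuc arrays. Its shLuc arrays lay close together, replicate 3 included. The log2 difference was -1.34 (SE 0.11, adjusted p = 0.051 from limma, 0.00194 without shLuc replicate 3). When each gene was represented by its averaged probe sets, the list had 0 lower genes, so the Uhmk1 call rested on its brightest probe set. Skp2, whose product targets p27 for degradation, and Ccna2, the cyclin A2 gene, passed as higher without shLuc replicate 3, at 0.60 (SE 0.14) and 0.65 (SE 0.07). On 6 arrays their log2 differences were 0.23 and 0.26. None of the 6 other CDK inhibitor genes passed in either direction, and Cdkn1a, the p21 gene, had 2127, 2241 and 2015 on the shSca-1 arrays, against 1887, 1954 and 156 on the shLuc arrays, with every shSca-1 array above every shLuc array. Its log2 difference was 1.35 (SE 0.91), or 0.15 without shLuc replicate 3. Cdkn2b, the p15 gene, had 46.2, 60.8 and 177 on the shSca-1 arrays, against 99.3, 70.1 and 1655 on the shLuc arrays. For both genes the array that departed from the other 5 was shLuc replicate 3.

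Around p130, none of 15 pocket protein and DREAM complex genes and none of 6 other E2F genes passed, and Mybl2, the B-MYB gene of the MuvB complex in cycling cells, had a log2 difference of 0.49 (SE 0.14, adjusted p = 0.347 from limma). Of 22 cell cycle genes that DREAM represses in resting cells, 2 were higher and 0 lower. Foxm1, a mitotic transcription factor gene, had 362, 415 and 416 on the shSca-1 arrays, against 262, 252 and 259 on the shLuc arrays, a log2 difference of 0.62 (SE 0.11, adjusted p = 0.178 from limma), or 0.63 (SE 0.10) without shLuc replicate 3. The other, Cenpe, encodes a mitotic kinesin and had a log2 difference of 0.63 (SE 0.14, adjusted p = 0.255 from limma), or 0.71 (SE 0.12) without that array. The list had 1 higher gene without shLuc replicate 2, without shSca-1 replicate 3 or with no trend. It had 0 when each gene was represented by its averaged probe sets, and 3 after quantile normalization or centring. The list's log2 difference was positive for 21 genes and negative for 1, and the share of all genes with a positive difference was not counted. The list's median was 0.28, or 0.39 without shLuc replicate 3, beside -0.04 for all genes in both cases. Some of the positive differences were near 0, as for Top2a (0.04), Mcm5 (0.04), Pcna (0.06) and Cdc6 (0.0007). Without shLuc replicate 3, Mcm2 (-0.05) and Mcm6 (-0.11) were negative. Without that array 5 passed, with Plk1 at 0.83 (SE 0.09), Bub1b at 0.72 (SE 0.09) and Aurka at 0.59 (SE 0.08) as the additions.

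Among the relatives of Txnip, 1 of 9 alpha-arrestin and thioredoxin genes was lower and 0 higher. Arrdc4, a close relative with the same glucose-linked control, had 94.2, 130 and 141 on the shSca-1 arrays, against 348, 305 and 461 on the shLuc arrays, with no overlap and a log2 difference of -1.61 (SE 0.22, adjusted p = 0.100 from limma, 0.0117 without shLuc replicate 3). Unlike Txnip, it was highest on shLuc replicate 3. Txnrd1, a thioredoxin reductase gene, passed as higher without that array and not on 6 arrays, at 0.67 (SE 0.16). None of 12 genes of the MYC-MAX-MLX network passed, with a median of -0.19. Of 21 sestrin partner and mTORC1 genes, Deptor alone passed, an mTOR inhibitor gene at 96.4, 88.9 and 104 on the shSca-1 arrays, against 221, 199 and 533 on the shLuc arrays (log2 difference -1.57, SE 0.36, adjusted p = 0.273 from limma, and -1.12, SE 0.14, without shLuc replicate 3). The list had 0 lower genes when any 1 shSca-1 array was left out, with a floor of 16 or 64, with the methods' t-test and with the mean of all probe sets. It had 2 without shLuc replicate 3, with Tsc1, an mTORC1 inhibitor gene, added at -0.70 (SE 0.15).

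No gene passed on 6 arrays among 15 other Krüppel-like factors, 6 BCL6 partners, 5 genes of the cyclin G group, 14 glucocorticoid-induced genes and 20 other quiescence and growth arrest genes. Hdac3, a corepressor subunit that works with BCL6, came near with 495, 526 and 493 on the shSca-1 arrays, against 767, 713 and 1394 on the shLuc arrays (log2 difference -0.86, SE 0.25, adjusted p = 0.366 from limma, and -0.55, SE 0.08, without shLuc replicate 3). Of the glucocorticoid list, Nr3c1, the receptor gene, was lower at -0.68 (SE 0.11) and Lcn2 higher at 0.69 (SE 0.12) without that array. On 6 arrays Nr3c1 was at -0.23 (SE 0.36) and Lcn2 at -0.09 (SE 0.60), so the sign of Lcn2 changed. On shLuc replicate 3 Nr3c1 had 353, below every shSca-1 array, and Lcn2 had 1641, above every shSca-1 array. With 1 other array left out, 1 BCL6 partner passed as lower without shLuc replicate 2, and 1 gene each of the glucocorticoid and quiescence lists passed as lower without shSca-1 replicate 3. In the quiescence list 15 log2 differences were negative and 5 positive, with a median of -0.30. Without shLuc replicate 3, 4 of its genes were lower and 1 higher. Ypel3, a growth arrest gene, was at -1.33 (SE 0.16), Ndrg1 at -1.19 (SE 0.31), Gas6 at -1.06 (SE 0.18) and Gas1 at -0.74 (SE 0.22), while Rgs2 was at 1.68 (SE 0.33). On shLuc replicate 3, the 4 lower genes had intensities within or below the range of the shSca-1 arrays. Rgs2 was dim on shLuc replicates 1 and 2, at 12.2 and 17.8, but had 227 on shLuc replicate 3, above every shSca-1 array. Its log2 difference on 6 arrays was 0.37 (SE 1.02).

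**Figure D5:**
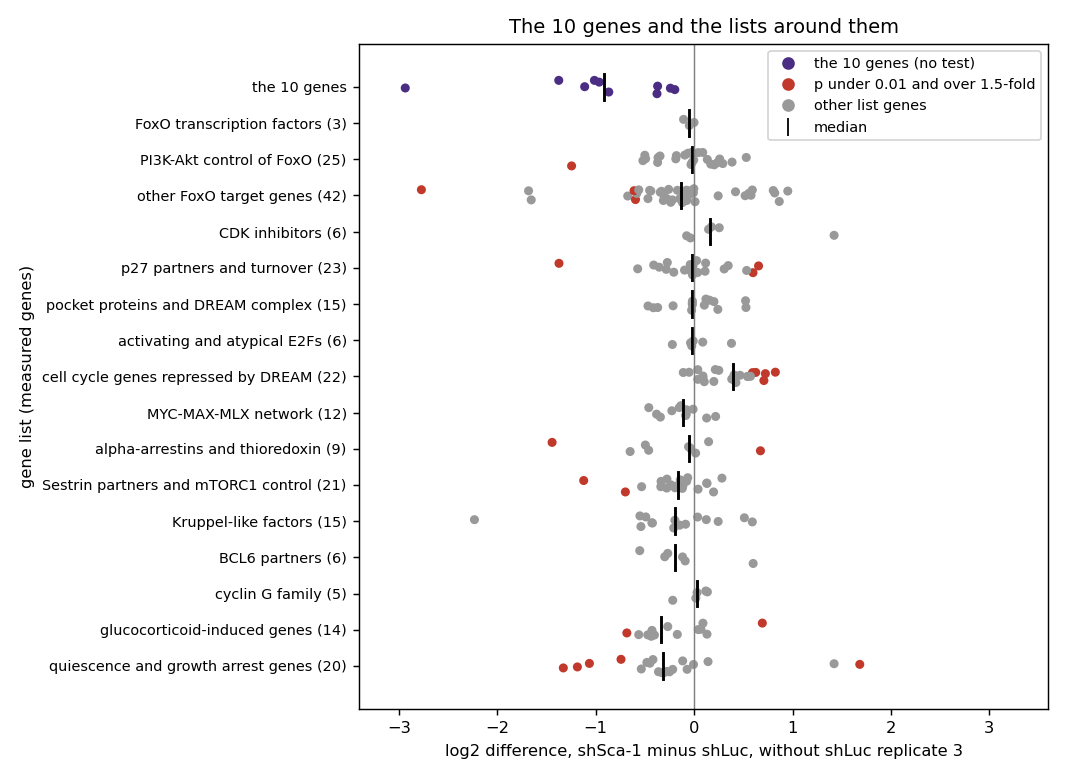
Log2 difference, shSca-1 minus shLuc, computed without shLuc replicate 3, for the 10 genes (purple, no test) and for the measured genes of each list, with red points for genes past both thresholds and a bar at each median. The 10 genes have a median of -0.92, and of the lists the cell cycle genes repressed by DREAM have a median of 0.39.

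The genes whose log2 intensity followed Cdkn1b most closely over the 6 arrays, among 9803 genes with a mean log2 value at or above the 60 percentile, were Cmtm6 (Pearson r = 0.999), Smarcc2 (0.998), Agps (0.997), Mthfsd (0.997) and Tmem14c (0.995). Cmtm6 had 276, 262 and 284 on the shSca-1 arrays, against 689, 651 and 1123 on the shLuc arrays, so that it too was highest on shLuc replicate 3 and did not overlap. For Rbl2 the closest were Mcfd2 (0.999), Cipc (0.998), Slc35e3 (0.998), Paip2 (0.997) and Arrdc4 (0.997). These correlations rest on 6 arrays in 2 groups, and the order of the arrays within a group was not always shared, as for shSca-1 replicates 1 and 2 in Cdkn1b and Cmtm6.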

How the data were processed

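RNA of 6 arrays was analysed, 3 shSca-1 and 3 shLuc. The intensities deposited by the authors are linear model values that they computed with dChip (PM-MM model, invariant set normalization); their methods name the MG 430 2.0 chip and their results the 430A 2.0 array. Of 45101 probe sets, 64 controls were left out. Of the other 45037, 34945 had 1 gene symbol in the platform annotation, 932 several and 9160 none. Entrez identifiers matched 34741 symbols to RefSeq and changed 0. The probe set of Ly6a has no symbol there and was matched through the gene list of the study.

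Values under 1 were set to 1 (1.12% of values equal 1) and log2 was taken. Differences between the groups were fitted with limma 3.58.1 under R 4.3.3 (eBayes with a trend), tested on simulated data, with Benjamini-Hochberg adjustment over 45037 probe sets and with thresholds of p 0.01 and 1.5-fold. A gene was represented by the probe set with the highest mean log2 value among those assigned to it alone. The smallest two-sided p of an exact permutation test between groups of 3 is 0.1. The number of arrays limits the precision, and array medians lay between 37.3 and 40.7.

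The 10 genes and the lists were chosen with earlier results of these data known. Named are the 10 genes, list genes past both thresholds or otherwise at most 2 with the smallest p, and the 5 genes most correlated with Cdkn1b and with Rbl2. Cdkn1a, Cdkn2b, Foxo4 and the list genes that passed without shLuc replicate 3 but not on 6 arrays were named after their values were seen. Same-numbered replicates deviated from their group means with correlations of -0.04, -0.02 and -0.03 and were not treated as pairs. The 16 alternatives were quantile normalization, centring, floors of 16 and 64, a filter at the 40 percentile, no trend, robust variance, the methods' t-test, averaging a gene's probe sets, leaving out each array, and a block for the replicate number. Promoters came from RefSeq tables.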

Additional observations from a re-analysis of the deposited data

How the results depend on the processing

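The median log2 difference of the 10 genes was -0.82, and with the replicate number as a block (replicate block) it was also -0.82. No trend, robust variance, the methods' t-test and the block leave a difference of means as it is, so they could not move it. The floors and the filter left it at -0.82 too. The settings that moved it gave -0.95 to -0.74. The genes were picked on this contrast, so the shared direction is a description only. Cdkn1b ranged from -1.44 to -0.87, the last with the mean of its probe sets. Direction changed in 3 genes. Leaving out 1 array gave -0.96 to 0.19 for Pik3ip1 (positive without shLuc replicate 1 or 2), -0.24 to 0.10 for Bcl6 and -0.37 to 0.11 for Sesn1, and Bcl6 was 0.02 after quantile normalization and 0.018 after centring. Of all probe sets, 599 were lower and 225 higher past both thresholds, 434 and 153 with the replicate block, and 367 to 1176 and 105 to 429 with 1 array left out. Floors gave 259 lower (floor 64) and 139 and 70 higher (floors 16 and 64). Of list genes, 8 were lower and 2 higher, 9 and 2 with the replicate block, and 4 to 13 and 1 to 10 with 1 array left out. Lower list genes numbered 5 with either floor, 5 with the methods' t-test and 4 with the mean of all probe sets. Higher list genes numbered 5 after quantile normalization, 4 after centring, 1 with no trend and 0 with the mean of all probe sets. The cause was not tested. Among the settings that leave out 1 array, the highest counts were those without shLuc replicate 3 and the lowest those without shSca-1 replicate 1 or, for the higher probe sets, shSca-1 replicate 2 and, for the higher list genes, shLuc replicate 2.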
